A study of Mus musculus with 30 samples.

Results

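The insulin-like growth factor I gene *Igf1*, 6 genes of IGF-binding proteins (*Igfbp2* to *Igfbp7*) and *Pappa*, whose product cleaves some of these binding proteins, were followed over dose and time in a cell line treated with cannabidiol (CBD). These 8 genes were taken by symbol from the 56941 Ensembl genes of the count tables. The cells were mHypoA-2/12 (Clu177), a clonal neuronal line, made by immortalizing cells of the hypothalamus of adult mice. They received either vehicle (0.1% DMSO) or CBD at 0.325, 0.75, 1.5 or 3 µM, and RNA was taken after 6 h or 24 h. The 30 libraries of 3′ mRNA-Seq form 10 groups of 3, with the vehicle groups of each time point as the controls. All groups share the line, the DMSO and a change to the treatment medium. The methods of the study name fetal bovine serum for the growth medium and none for the treatment medium. Nothing in the labels says whether the 3 libraries of a group came from separate cultures, so that p-values measure the spread between these libraries only.

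IGF-I is a secreted growth factor that acts on the receptor encoded by *Igf1r*, which passes the signal on through insulin receptor substrates to PI3K and AKT. The IGF-binding proteins hold IGF-I outside the cell and can either keep it from the receptor or release it there. IGFBP-6 prefers IGF-II, IGFBP-7 binds IGFs only weakly, and IGFBP-2 and IGFBP-5 carry sites for the cell surface or the matrix. PAPP-A is a secreted protease that cuts IGFBP-4 and IGFBP-5 and so frees the ligand. In the hypothalamus, IGF-I and insulin are known as signals of growth, feeding and survival of neurons.

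In the genome, *Igfbp2* and *Igfbp5* are neighbours on chromosome 1. On GRCm38, an older assembly than the GRCm39 of the counts, *Igfbp2* (ENSMUSG00000039323) lies at chr1:72824503-72852474 on the plus strand and *Igfbp5* (ENSMUSG00000026185) at chr1:72857932-72874884 on the minus strand, with 5457 bases between their 3′ ends. *Igf1* (ENSMUSG00000020053) lies at chr10:87858265-87937042, *Igfbp3* (ENSMUSG00000020427) at chr11:7206086-7213923 and *Igfbp4* (ENSMUSG00000017493) at chr11:99041244-99054392. *Igfbp6* (ENSMUSG00000023046) lies at chr15:102144362-102149511, *Igfbp7* (ENSMUSG00000036256) at chr5:77349240-77408041 and *Pappa* (ENSMUSG00000028370) at chr4:65124174-65357509. Exons of *Igfbp7* overlap those of *Polr2b* on the other strand, and the strand setting of the counting was not given in the sources used here, so that reads of both genes may be mixed there.

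The promoters of the pair on chromosome 1 and of *Igfbp4* are shown. Averaged over the conditions, both genes of the pair were lower at 24 h than at 6 h and *Igfbp4* was higher, as described further on. Each sequence holds the 250 bases before a RefSeq start of the gene (GRCm38.p6), written 5′ to 3′ along the gene, with matches to the motifs searched on both strands in capitals. They span chr1:72824230-72824479 (plus strand, 67.2% GC), chr11:99040994-99041243 (plus strand, 69.2% GC) and chr1:72874866-72875115 (minus strand, 58.8% GC), in this order.
Igfbp2: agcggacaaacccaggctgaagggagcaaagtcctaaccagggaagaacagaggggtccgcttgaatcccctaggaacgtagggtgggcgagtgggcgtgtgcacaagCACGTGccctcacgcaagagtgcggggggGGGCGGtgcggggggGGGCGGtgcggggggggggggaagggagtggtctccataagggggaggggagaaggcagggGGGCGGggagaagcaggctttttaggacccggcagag
Igfbp4: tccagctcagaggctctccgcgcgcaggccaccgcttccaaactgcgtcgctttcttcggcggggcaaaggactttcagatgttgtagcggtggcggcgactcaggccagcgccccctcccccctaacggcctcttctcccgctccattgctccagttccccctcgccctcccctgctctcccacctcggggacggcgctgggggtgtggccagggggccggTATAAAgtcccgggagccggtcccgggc
Igfbp5: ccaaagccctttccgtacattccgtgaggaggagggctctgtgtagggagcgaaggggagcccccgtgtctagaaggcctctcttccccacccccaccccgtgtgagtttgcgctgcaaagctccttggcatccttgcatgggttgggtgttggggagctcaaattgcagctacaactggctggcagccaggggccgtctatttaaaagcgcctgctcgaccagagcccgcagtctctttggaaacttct

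The *Igfbp2* window holds 1 E-box (CACGTG) and 3 GC boxes (GGGCGG), whereas the *Igfbp4* window holds 1 TATA match (TATAAA). No match to these, to the CRE (TGACGTCA), AP-1 (TGANTCA), forkhead (GTAAACA) or CCAAT letters was found in the *Igfbp5* window. For comparison, 32851 RefSeq promoters of the same length were searched, with 1 chromosome that holds none of the 8 genes left out. Of these, 6.02% held the E-box, 32.7% the GC box, 12.4% the TATA, 1.55% the CRE, 6.75% the AP-1, 3.17% the forkhead and 33.8% the CCAAT letters. Promoters were found for 7 of the 8 genes. A second RefSeq start of *Igfbp2*, whose window spans chr1:72825137-72825386, had 1 AP-1 match and no E-box or GC box. The *Igfbp7* window held 4 GC boxes, the *Igf1* window 1 AP-1 and 1 CCAAT match, and the *Igfbp3* window none of the motifs. The *Igfbp6* window held 1 TATA and 2 CCAAT matches, but the bases after its RefSeq start were not found at the 5′ end of a GENCODE transcript of the gene.

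The libraries held between 1839621 and 4420675 reads on genes. The 12 neuronal markers examined were present in part. At both time points 6 of them had a median of at least 10 CPM (read counts relative to the scaled library size), with *Nefm* or *Tubb3* highest, but *Rbfox3*, *Snap25*, *Elavl3* and *Elavl4* were below 1 CPM. The summed level of these markers was 161 to 229 CPM per library at 6 h and 154 to 226 CPM at 24 h. Of 12 hypothalamic neuropeptides, 11 had a median below 1 CPM, and the exception was *Gnrh1* with 3.37 CPM at 6 h and 2.91 CPM at 24 h. The 10 markers of fibroblasts and mural cells summed to 5363 to 7692 CPM at 6 h and 5479 to 6877 CPM at 24 h, with *Acta2* at a median of 2326 and 1956 CPM. Endothelial and oligodendrocyte markers summed to at most 4.14 CPM. Among 6 microglial markers, *Aif1*, *P2ry12* and *Ptprc* were below 1 CPM, whereas *Tmem119* had medians of 209 and 281 CPM, *Cx3cr1* 16.1 and 10.3 CPM and *Csf1r* 10.5 and 10.6 CPM at 6 h and 24 h. Of 6 astrocyte markers, *Gfap*, *Aqp4* and *Aldh1l1* were below 1 CPM, and *Slc1a2* (21.05 and 12.8 CPM), *S100b* (1.87 and 5.74 CPM) and *Slc1a3* (2.9 and 3.65 CPM) were above it. The part of the cells' makeup in the results below was not tested, and in such bulk samples fewer cells of a type and less RNA per cell cannot be told apart.

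One library stands apart from the others of its time point. Over the 1000 most variable genes, library A16, labelled as CBD 3 µM at 24 h, correlated better with the mean of the 6 h libraries (r = 0.75) than with that of the other 24 h libraries (r = 0.702). Each of the other 29 libraries was closer to its own time point (r from 0.802 to 0.917) than to the other one (r from 0.469 to 0.702). In A16, *Igfbp2* was at 201 CPM and *Igfbp4* at 619 CPM, within the range of the 6 h libraries and outside that of the other 14 libraries of 24 h for both genes. Its *Igf1* level of 3.23 CPM, from 8 reads, was the lowest of all libraries. *Igfbp3* in A16, at 0.404 CPM from 1 read, was within the range of the other 24 h libraries and below that of 6 h. *Igfbp5*, *Igfbp6*, *Igfbp7* and *Pappa* were within both ranges. Among genes with a mean of at least 1 CPM, 548 separated the other 24 h libraries from those of 6 h. A16 was within the 6 h range for 46.7% of them. Each result that includes A16 is therefore given with and without it where the difference bears on it. Library A3, vehicle at 6 h, also differed within its group. Its chi-square per gene was 12.0 against A1 and 10.8 against A2, where A1 against A2 gave 2.23. For A16 it was 10.4 against A17 and 7.24 against A18. A3 held 3574833 reads on genes, A1 1839621 and A2 1919498. Without A3, 108 genes were called at 0.325 µM and 6 h, against 24 with it.

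**Figure D1:**
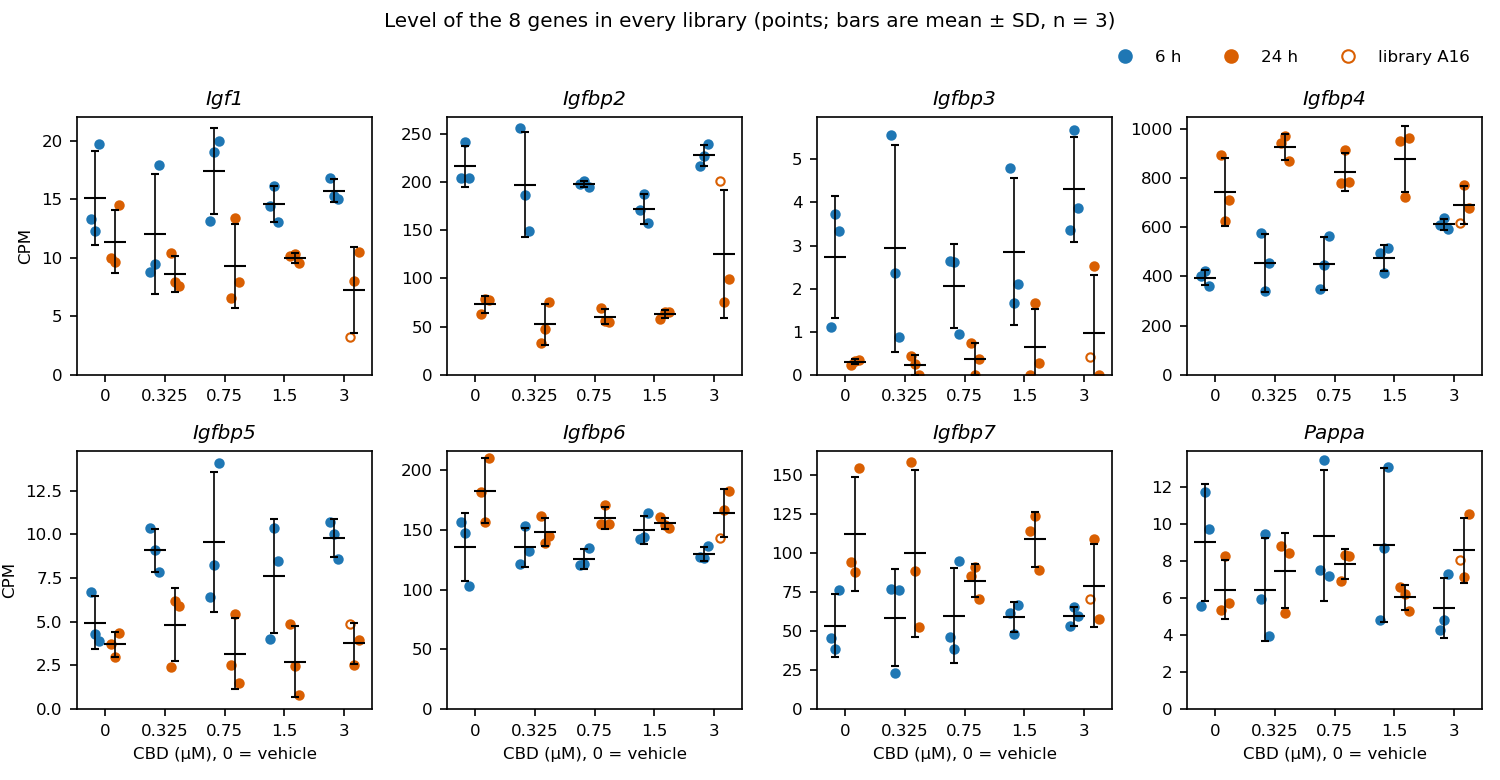
Levels in CPM of the 8 genes by CBD dose (0 is vehicle), with 1 point per library, 6 h in blue and 24 h in orange; horizontal marks and bars are the mean ± SD of 3 libraries, and the open circle is library A16. *Igfbp2* lies at 149 CPM or above in all 6 h libraries and at 99.95 CPM or below in the 24 h libraries other than A16, whereas *Igfbp4* is highest at 24 h.

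The ligand gene *Igf1* was measured at a low level throughout. At 6 h its 15 libraries ranged from 8.75 to 20.01 CPM with a median of 15.03 CPM, and at 24 h from 3.23 to 14.5 CPM with a median of 9.61 CPM. Transcripts of *Igf2*, the gene of the second ligand, were limited to 1 read at each time point, and *Ins1* and *Ins2* had 0 reads in all libraries, which allows 3 reads or 0.0356 CPM over the whole series. The receptor gene *Igf1r* was at 226 ± 15.7 CPM (SD, n = 15) at 6 h and 211 ± 19.6 CPM (SD, n = 15) at 24 h.

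Among the binding proteins, *Igfbp4* gave the most reads. Since 3′ mRNA-Seq takes reads from the end of a transcript only, CPM values were not divided by gene length, and the order of genes on this scale also depends on how their 3′ ends map. By median CPM at 6 h the order was *Igfbp4* (453), *Igfbp2* (201), *Igfbp6* (135), *Igfbp7* (59.7), *Igfbp5* (8.45) and *Igfbp3* (2.63). At 24 h it was *Igfbp4* (782), *Igfbp6* (156), *Igfbp7* (89.0), *Igfbp2* (65.4), *Igfbp5* (3.73) and *Igfbp3* (0.33), so that *Igfbp2* moved from the second to the fourth place. *Igfbp1*, a binding protein known from the liver, had 0 reads in all libraries, with the same limit as the insulin genes. The protease gene *Pappa* ranged from 3.93 to 13.4 CPM at 6 h and from 5.18 to 10.5 CPM at 24 h.

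Within a time point, groups next to each other in level overlapped for *Igf1*, *Igfbp7*, *Igfbp5* and *Pappa*. The group means (± SD, n = 3 each) are given here from vehicle through 0.325, 0.75 and 1.5 µM to 3 µM. *Igf1* was at 15.1 ± 4.02, 12.04 ± 5.1, 17.4 ± 3.71, 14.6 ± 1.54 and 15.7 ± 0.979 CPM at 6 h, and at 11.4 ± 2.7, 8.62 ± 1.52, 9.27 ± 3.6, 10.01 ± 0.425 and 7.24 ± 3.7 CPM at 24 h. Its lowest mean was that of 0.325 µM at 6 h and that of 3 µM, the group that holds A16, at 24 h. *Igfbp7*, whose product binds IGFs weakly, was at 53.5 ± 20.2, 58.6 ± 30.9, 59.9 ± 30.7, 58.7 ± 9.58 and 59.5 ± 6.1 CPM at 6 h, and at 112 ± 36.7, 99.7 ± 53.7, 82.3 ± 10.4, 108.7 ± 17.7 and 79.1 ± 26.8 CPM at 24 h. *Igfbp5* was at 4.94 ± 1.51, 9.09 ± 1.24, 9.56 ± 4.01, 7.6 ± 3.26 and 9.78 ± 1.08 CPM at 6 h, and at 3.7 ± 0.697, 4.84 ± 2.09, 3.16 ± 2.03, 2.71 ± 2.04 and 3.77 ± 1.18 CPM at 24 h. Its vehicle mean was the lowest of 6 h but not of 24 h. *Pappa*, the protease gene, was at 9.01 ± 3.15, 6.45 ± 2.8, 9.38 ± 3.52, 8.87 ± 4.15 and 5.46 ± 1.61 CPM at 6 h, and at 6.46 ± 1.6, 7.49 ± 2.01, 7.85 ± 0.808, 6.04 ± 0.679 and 8.58 ± 1.75 CPM at 24 h. Its mean with 3 µM was the lowest of 6 h and the highest of 24 h.

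The first comparison asked whether CBD changed the level of these genes against vehicle. At no dose and neither time point did any of the 8 genes pass the threshold, which was a false discovery rate (FDR, by Benjamini-Hochberg over all genes tested) below 0.1 in edgeR's quasi-likelihood test. At 6 h, the share of all 12012 genes called was 0.2% for 0.325 µM, 0.0749% for 0.75 µM, 0.0999% for 1.5 µM and 0.05% for 3 µM. At 24 h, 12118 genes were tested, without *Igfbp3*, which had too few reads, and the shares were 0.066%, 0.0825%, 0.0413% and 0.00825% at the same doses. With the 4 doses averaged, 0.749% of genes were called at 6 h and 0.107% at 24 h, none of them among the 8. Of the 60 comparisons of a single gene and dose with vehicle, 8 had an unadjusted p below 0.05, where 7.26% to 9.16% of all genes did in the same 8 comparisons, and the lowest FDR was 0.238. *Igfbp5* gave 3 of the 8, and the doses of a time point share their vehicle libraries, so these comparisons are not independent. With DESeq2, 1 of the 60 was called, *Igfbp4* at 3 µM and 6 h. DESeq2 called 48 of all genes in that comparison, where edgeR called 6.

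That comparison had the lowest FDR of the 60. *Igfbp4* was at 608, 636 and 593 CPM in the 6 h libraries with 3 µM of CBD, against 403, 420 and 361 CPM with vehicle. The 3 treated libraries lie above all 3 vehicle libraries. The lower doses gave intermediate means that overlap with vehicle, 456 ± 118 CPM for 0.325 µM, 452 ± 108 CPM for 0.75 µM and 475 ± 52.8 CPM for 1.5 µM (SD, n = 3 each), and the last of them overlaps by 1 library. The log2 fold change at 3 µM was 0.63 (SE 0.17) with an unadjusted p of 0.000957 and an FDR of 0.238 in edgeR, so it was not called. Its FDR was 0.0994 by DESeq2. It was 0.00447 when no low-count filter was used, 0.0737 with a covariate for reads outside genes, and 0.0886 without library A14 of another dose. In the other 17 of 21 alternatives *Igfbp4* was not called. Calls over all genes at this dose also rose, from 6 to 48 with DESeq2, 92 with no filter and 79 with the covariate. The size of the difference stayed between 0.57 and 0.69 in all alternatives, and leaving out a library of the 3 µM group raised the FDR to between 0.512 and 0.737. At 24 h the same dose gave a log2 fold change of −0.10 for *Igfbp4*.

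*Igfbp5*, a binding protein that attaches to matrix, was higher on average at every dose of 6 h. Its vehicle libraries were at 6.67, 4.27 and 3.89 CPM, and the 12 treated libraries ranged from 4.002 to 14.1 CPM, so the groups overlap over all doses. With 0.325 µM (7.87 to 10.3 CPM) and with 3 µM (8.59 to 10.7 CPM), all 3 libraries lie above those of vehicle. At 3 of the 4 doses the unadjusted p was below 0.05, with FDRs of 0.551 to 0.604 in edgeR. All 4 doses share the 3 vehicle libraries, which held 12, 8 and 14 reads of *Igfbp5*, so these comparisons are not independent. The mean of the 4 doses differed from vehicle by 0.89 on the log2 scale (SE 0.35, FDR 0.349 in edgeR). This difference was not called. At 24 h, with vehicle at 3.73, 2.98 and 4.38 CPM, the corresponding value was −0.10 (SE 0.44). The difference between the time points in the change from vehicle to the mean of the doses was −0.99 (SE 0.56, FDR 0.805), and no member passed this test, in which 0.235% of 12790 genes did.

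None of the remaining genes was called against vehicle, although some groups of libraries did not overlap. *Igfbp2* was lower by 0.33 on the log2 scale at 1.5 µM and 6 h, where its libraries were at 171, 188 and 158 CPM against 204, 241 and 204 CPM with vehicle. All 3 treated libraries lie below all 3 of vehicle, and the FDR was 0.603 in edgeR. With 0.75 µM at 6 h, *Igfbp2* was at 198, 201 and 195 CPM, also wholly below vehicle. The log2 fold change there was −0.13, with an unadjusted p of 0.414 in edgeR. How often all 3 libraries of a dose lie beyond those of vehicle was not counted over all genes. Such separation, here and for *Igfbp4* and *Igfbp5*, only describes these libraries. *Igfbp6* at 24 h had its lowest mean at 0.325 µM, 149 ± 11.8 CPM, against 183 ± 26.97 CPM with vehicle (SD, n = 3; log2 fold change −0.31, edgeR FDR 0.505). For *Igf1* the 8 dose comparisons ranged from −0.64 to 0.17 with SEs of 0.29 to 0.36, for *Igfbp7* from −0.49 to 0.14 with SEs of 0.26 to 0.33, and for *Pappa* from −0.74 to 0.42 with SEs of 0.34 to 0.45. The −0.64 of *Igf1* and the −0.49 of *Igfbp7* belong to 3 µM at 24 h, the group that holds A16. Without A16 they were −0.29 (SE 0.36) and −0.42 (SE 0.28). At 6 h *Igfbp3* ranged from −0.46 to 0.59 with SEs of 0.65 to 0.69. With these errors, differences of such sizes were not detectable, and the values do not show that the levels were alike.

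**Figure D2:**
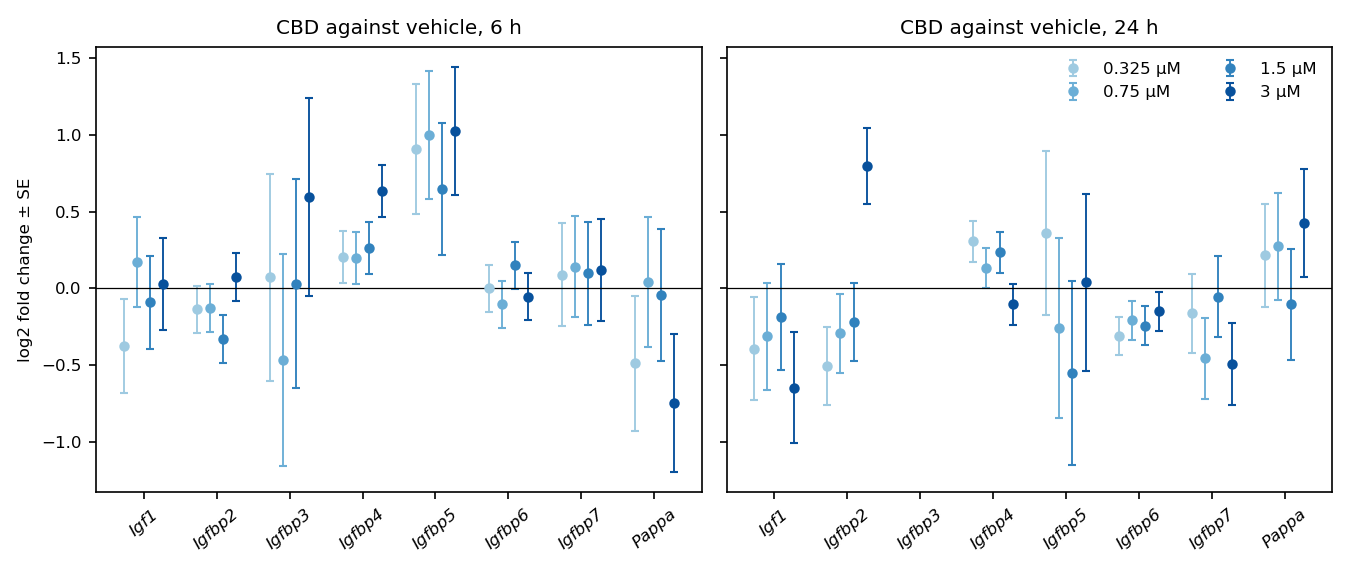
Log2 fold changes of CBD against vehicle for the 8 genes at 6 h (left) and 24 h (right), with 1 point per dose and bars for the SE; *Igfbp3* was not tested at 24 h. At 6 h all points of *Igfbp4*, *Igfbp5* and *Igfbp7* lie above 0, and none of the points passed the FDR threshold.

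Doses were also compared with each other. At 6 h no gene was called for a difference among the 4 doses (0% of 12012 genes in edgeR), 452 genes had an unadjusted p below 0.05, 1 of them among the 8, and none of the 8 was called by DESeq2 either. At 24 h, 1.93% of genes were called, among them *Igfbp2* with an FDR of 0.022. The 3 µM libraries had 201, 75.96 and 99.95 CPM. Lower levels were found with 1.5 µM (58.3, 65.4 and 65.1 CPM), 0.75 µM (69.2, 56.4 and 54.9 CPM) and 0.325 µM (33.1, 47.8 and 75.84 CPM). The 201 CPM belongs to A16. Both other 3 µM libraries were also above all libraries of the lower doses, A17 with 75.96 against 75.84 CPM. How often this occurs over all genes was not counted, so it only describes these libraries. Of the vehicle libraries of 24 h, A29 and A30 (78.6 and 78.1 CPM) lay above A17 and A28 (63.1 CPM) below it. Without A16 the FDR of *Igfbp2* was 0.359 and it was no longer called.

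For 3 µM against the mean of the 3 lower doses at 24 h, 10.5% of all genes were called (6.36% higher and 4.16% lower at 3 µM), and 2 of the 7 genes tested were among them. This comparison was chosen with earlier results of these data known, so its FDRs are not those of a planned test. *Igfbp2* was higher at 3 µM by 1.14 on the log2 scale (SE 0.20, edgeR FDR 0.00249), and *Igfbp4* was lower by 0.33 (SE 0.11, edgeR FDR 0.0737). *Igfbp4* was at 619, 771 and 679 CPM at 3 µM and at 722 to 970 CPM in the 9 libraries of the lower doses, which overlap. Leaving out A16 gave 0.60 (SE 0.18, FDR 0.139) for *Igfbp2* and −0.26 (SE 0.12, FDR 0.357) for *Igfbp4*, and the share of all genes called dropped to 0.543%. With the covariate for reads outside genes the differences were larger, 1.36 for *Igfbp2* (FDR 0.143) and −0.47 for *Igfbp4* (FDR 0.372), and neither was called. Against vehicle instead of the lower doses, *Igfbp2* at 3 µM and 24 h differed by 0.80 (SE 0.25, edgeR FDR 0.5) with A16 and by 0.27 (SE 0.21, FDR 0.938) without it.

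The second comparison set 24 h against 6 h. The binding proteins differed between the time points in both directions: *Igfbp2* and *Igfbp5* were lower at 24 h, and *Igfbp4*, *Igfbp6* and *Igfbp7* were higher. *Igfbp3* is left out of the counts here, since it had at least 10 reads in 5 of the 15 libraries of 6 h and in 0 of 24 h, and so passed the filter on low counts only through the group where it was high. In the vehicle libraries alone, 4 of the other 7 genes passed the threshold, 3 higher (*Igfbp4*, *Igfbp6*, *Igfbp7*) and 1 lower (*Igfbp2*), where 26.7% of 12790 genes were called, 12.5% higher and 14.2% lower. Averaged over the 5 conditions, 6 of the 7 passed, 3 higher and 3 lower, where 58.9% of genes were called, 28.4% higher and 30.5% lower. The median log2 change of the 7 was −0.38 in vehicle (−0.03 over all genes) and −0.09 over the conditions (−0.01 over all genes). These counts are read against those shares and are no result about the 7 genes as a group. Time since treatment, time in the new medium and anything else done separately for the time points cannot be told apart, since each library belongs to 1 time only.

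*Igfbp2* had the smallest p of the 8. With vehicle it was at 204, 241 and 204 CPM at 6 h and at 63.1, 78.6 and 78.1 CPM at 24 h, so that the mean at 6 h was 2.95 times that at 24 h. The log2 change was −1.56 (SE 0.23, edgeR FDR 9e-06). The ratio of the group means, 6 h over 24 h, was 3.78 with 0.325 µM, 3.29 with 0.75 µM, 2.74 with 1.5 µM and 1.81 with 3 µM of CBD, and the last was 2.59 without A16. Over all conditions the 6 h libraries ranged from 149 to 256 CPM and the 14 libraries of 24 h other than A16 from 33.1 to 99.95 CPM, without overlap. Among 14372 genes with a mean of at least 1 CPM, 1.96% had these 14 libraries all below the 6 h ones and 1.86% all above. The mean change over the 5 conditions was −1.50 (SE 0.10, edgeR FDR 1.29e-14), and −1.60 without A16.

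*Igfbp4*, the substrate of PAPP-A, moved the other way. Its vehicle libraries were at 403, 420 and 361 CPM at 6 h and at 893, 625 and 711 CPM at 24 h (log2 change 0.92, SE 0.16, edgeR FDR 0.000104). The ratio of the means, 24 h over 6 h, was 1.88 with vehicle, 2.03 with 0.325 µM, 1.82 with 0.75 µM and 1.85 with 1.5 µM of CBD. With 3 µM it was 1.13 (612 CPM at 6 h and 690 CPM at 24 h), and 1.18 without A16. The 6 h libraries ranged from 339 to 636 CPM and the 24 h libraries other than A16 from 625 to 970 CPM, which overlap only between 625 and 636 CPM. Averaged over the conditions, the change was 0.77 (SE 0.07, edgeR FDR 2.19e-11).

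**Figure D3:**
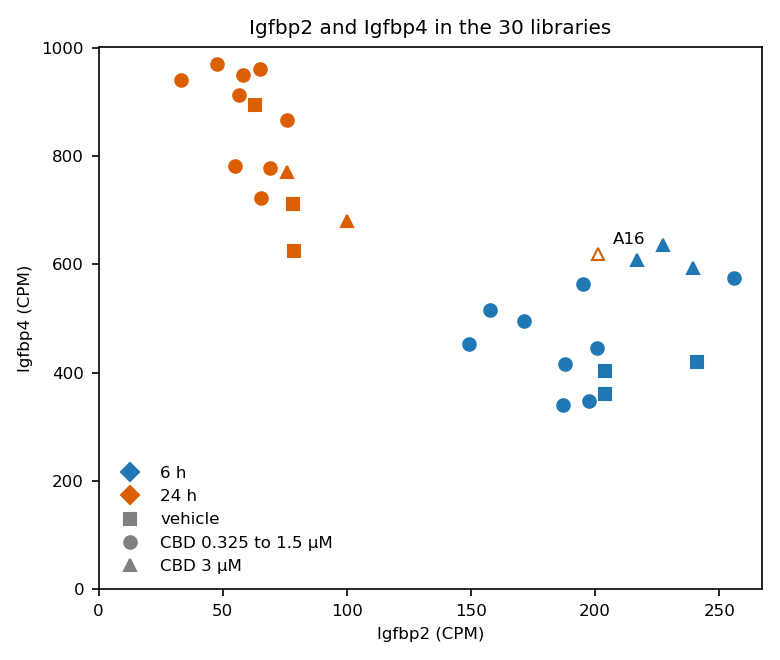
Level of *Igfbp2* (x axis, CPM) against that of *Igfbp4* (y axis, CPM) in the 30 libraries, with 6 h in blue and 24 h in orange, squares for vehicle, circles for 0.325 to 1.5 µM and triangles for 3 µM of CBD. The open triangle is A16, which lies at 201 and 619 CPM beside the 3 libraries of 3 µM at 6 h.

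*Igfbp3* and *Igfbp5* were both near the limit of these libraries. *Igfbp3*, the main carrier of IGF-I in blood, had 114 reads over the 15 libraries of 6 h and 21 over those of 24 h, where 4 libraries had 0. With vehicle it was at 1.11, 3.73 and 3.33 CPM at 6 h and at 0.23, 0.33 and 0.34 CPM at 24 h. Over all conditions its libraries ranged from 0.874 to 5.67 CPM at 6 h and from 0 to 2.52 CPM at 24 h, which overlap, and no test is given for the reason above. *Igfbp5* changed by −1.17 over the conditions (SE 0.22, edgeR FDR 2.7e-05), with medians of 8.45 CPM at 6 h and 3.73 CPM at 24 h. In vehicle alone its change was −0.38 (SE 0.51, FDR 0.65) and was not called.

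The rises of *Igfbp6* and *Igfbp7* were smaller against their spread. *Igfbp6*, whose product favours IGF-II, was at 156, 148 and 103 CPM with vehicle at 6 h and at 182, 156 and 210 CPM at 24 h. The vehicle libraries of 6 h thus end at 156.3 CPM and those of 24 h begin at 156.5 CPM. The log2 change was 0.44 in vehicle (SE 0.14, edgeR FDR 0.0206) and 0.26 over the conditions (SE 0.06, FDR 0.000556). *Igfbp7* was at 45.6, 38.4 and 76.4 CPM with vehicle at 6 h and at 93.9, 87.9 and 154 CPM at 24 h, without overlap. Its log2 change was 1.02 in vehicle (SE 0.33, edgeR FDR 0.0261) and 0.71 over the conditions (SE 0.15, FDR 0.000138). Over all conditions the time points overlapped for both genes, also without A16. The 6 h libraries ranged from 103 to 164 CPM for *Igfbp6* and from 22.9 to 95.03 CPM for *Igfbp7*. The 24 h libraries other than A16 ranged from 139 to 210 CPM for *Igfbp6* and from 52.7 to 158 CPM for *Igfbp7*. How many of all genes had no overlap between the vehicle groups was not counted. Without library A30, vehicle at 24 h, which was the highest vehicle library for both genes, the vehicle changes were 0.35 (FDR 0.127) and 0.74 (FDR 0.173), and neither was called. The call of *Igfbp6* was also lost without A3, vehicle at 6 h (0.28, FDR 0.186), and with the covariate for reads outside genes (0.29, FDR 0.119), and that of *Igfbp7* without A2, vehicle at 6 h (0.85, FDR 0.119).

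*Igf1* fell by 0.70 on the log2 scale over the conditions (SE 0.15, edgeR FDR 0.00012), and by 0.62 without A16. In vehicle, with 13.4, 12.3 and 19.7 CPM at 6 h and 10.02, 9.61 and 14.5 CPM at 24 h, the groups overlap and the change was −0.45 (SE 0.32, FDR 0.338). *Pappa* passed in neither time comparison. Its log2 change was −0.50 in vehicle (SE 0.38, edgeR FDR 0.383) and −0.09 over the conditions (SE 0.17, FDR 0.689).

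**Figure D4:**
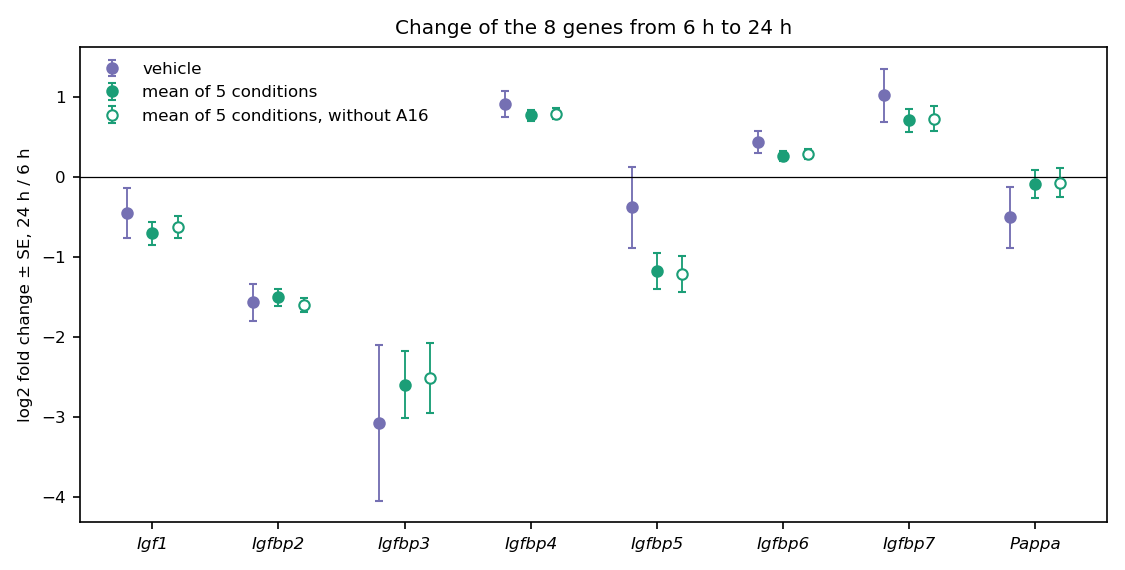
Log2 fold change from 6 h to 24 h of the 8 genes with its SE, in vehicle (purple), averaged over the 5 conditions (green) and averaged without library A16 (open green). *Igfbp2* lies below 0 and *Igfbp4*, *Igfbp6* and *Igfbp7* above 0 in all 3, and *Pappa* lies at −0.09 in the average. *Igfbp3* passed the filter on low counts only through the 6 h libraries, so its points are drawn but not read as a result.

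The other genes of the IGF system were read from a list of 26, of which 18 could be tested over all libraries and 17 at each time point. None was called for CBD against vehicle by edgeR at any dose, and between 0 and 4 of them had an unadjusted p below 0.05 in a comparison. Among doses at 24 h, *Stc1*, which encodes an inhibitor of PAPP-A, was called (FDR 0.0712), as it was for 3 µM against the lower doses (log2 change 0.66, SE 0.14, edgeR FDR 0.0087) together with *Htra1* (−0.44) and *Grb10* (−0.40). *Stc1* was at 1044 CPM in A16, and none of the 3 was called without that library. Over all genes, 1.93% were called among doses and 10.5% for 3 µM against the lower doses. Between the vehicle groups of the time points 4 of the 18 were called, where 26.7% of all genes were. *Stc1* was lower at 24 h (−0.67, SE 0.17), and the receptor adaptor *Grb10* (0.45), the mRNA-binding protein gene *Igf2bp2* (0.52) and the imprinted transcript *H19* (0.82) were higher.

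Averaged over the conditions, 10 of the 18 passed, 6 higher and 4 lower at 24 h, near the 58.9% of all genes, with a median log2 change of 0.22 over the tested genes of the list against −0.01 over all genes. The higher ones were *Irs1* (0.45) and *Irs2* (0.32), which encode insulin receptor substrates, the adaptors *Grb10* (0.52) and *Grb14* (0.51), *Igf2bp2* (0.62) and *Htra1* (0.31), which encodes a secreted protease. The lower ones were *Stc1* (−0.69), *Stc2* (−0.62), *Adam12* (−0.49) and *Igf1r*. *Stc1* was at 921 ± 101 CPM (SD, n = 15) at 6 h and 580 ± 164 CPM (SD, n = 15) at 24 h, and *Stc2* encodes another inhibitor of PAPP-A. *Igf1r* changed by −0.10 (SE 0.05) with an FDR just inside the threshold. Without A16, 12 of the 18 passed, and *Igf1r* was not among them.

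**Figure D5:**
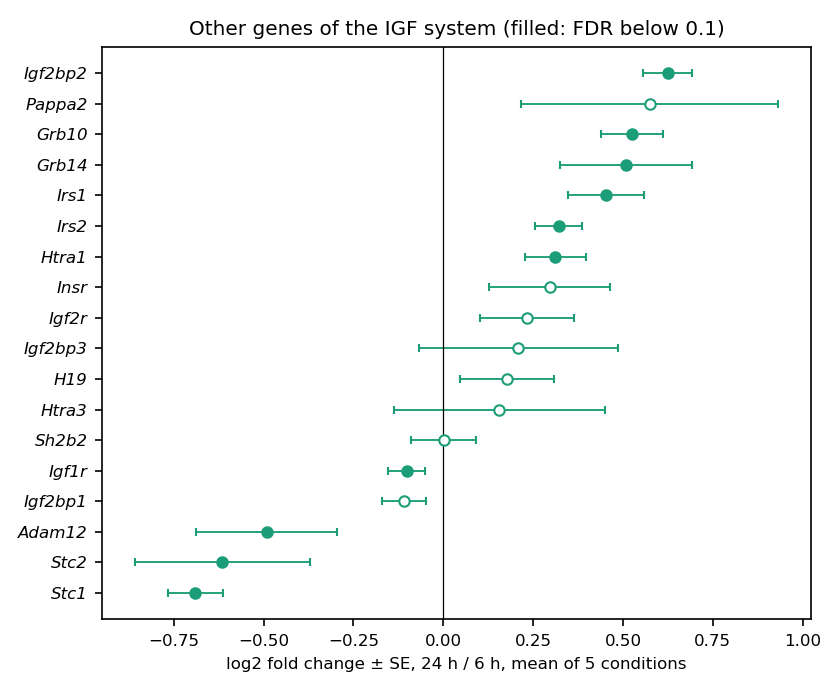
Log2 fold change from 6 h to 24 h, averaged over the 5 conditions, with its SE for the 18 tested genes of the list of other genes of the IGF system; filled points passed the FDR threshold. *Stc1* is lowest at −0.69 and *Igf2bp2* highest at 0.62.

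Downstream, 22 genes of PI3K and AKT signalling were read, of which 21 could be tested. None was called for CBD against vehicle by edgeR, and 1 to 4 of them had an unadjusted p below 0.05 in a comparison. For 3 µM against the lower doses at 24 h, *Pik3cb* (−0.59) and *Akt1* (−0.45) were lower and *Gsk3b* (0.26) higher, where 10.5% of all genes were called. None of these was called without A16. From 6 h to 24 h in vehicle, *Pik3r2* (0.58), *Foxo3* (0.45), *Tsc2* (0.63) and *Rictor* (0.48) rose and *Rheb* (−0.84), which encodes the activator of mTORC1, fell. These are 5 of the 21, where 26.7% of all genes were called. Over the conditions 12 of the 21 passed, again near the 58.9% of all genes, 10 higher and 2 lower (*Rheb* −0.66, *Akt1* −0.21), with a median of 0.19 over the tested genes of the list. *Foxo3*, a transcription factor that AKT holds outside the nucleus, rose by 0.62, from 82.6 ± 8.95 CPM at 6 h to 127 ± 15.99 CPM at 24 h (SD, n = 15 each).

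Genes whose level followed that of a member most closely were sought among 8686 genes with a mean of at least 10 CPM, by Pearson's r of log2 CPM over the 30 libraries. For *Igfbp2* these were *Pdcd4*, *Gm11935* and *Inhba* (r = 0.972 each), and for *Igfbp4* they were *Klhl24* (0.946), *Ogn* (0.94) and *Fzd2* (0.927). *Igfbp7* was nearest to *Pnrc1* (0.88), *Atp5j* (0.856) and *Rps24* (0.844), *Igfbp6* to *Anxa6* (0.86), *Tnrc6b* (0.834) and *Sil1* (0.83), and *Igf1* to *Cyp1b1* (0.833), *Flt1* (0.833) and *Chst11* (0.817). These values describe the libraries, which include both time points.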

How the data were processed

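The data were 30 libraries of QuantSeq 3′ mRNA-Seq. According to the methods, the authors trimmed reads with Flexbar, mapped them with STAR 2.7.5c to GRCm39 and counted them per gene with HTSeq 1.99.2. The deposited values are raw counts per Ensembl gene, with no normalization, in 1 table per library. Reads outside genes (17.7% to 22.2% of the reads) were left out of the gene counts. Groups came from the labels.

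The quasi-likelihood F-test of edgeR 4.0.16 (R 4.3.3) was applied after filterByExpr and TMM. Each time point was fitted on its 15 libraries with a mean per group, and comparisons between times on all 30. The Benjamini-Hochberg FDR was taken over all genes of a comparison (threshold 0.1), and the SE is the absolute log2 fold change over the square root of F. Levels are CPM on the scale of all 30 libraries, and log2 CPM for correlations used a prior count of 2. Over 30 pairs of libraries of one group, the chi-square per gene was 2.17 to 12.0, above sampling noise in every pair; pairs across groups were not compared. The alternatives were DESeq2 1.42.0, RLE normalization, other filters on low counts, only the groups compared, a covariate for reads outside genes, and each library left out in turn. The steps were tested on simulated data. A limit for a count of 0 (3 reads) covers counting error only.

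The genes and lists, and the comparison of 3 µM with the lower doses at 24 h, were chosen with earlier results of these data known. Named were all 8 members, the genes of the lists past the threshold in a comparison, and for each member with a mean of at least 10 CPM the 3 genes with the highest correlation. GENCODE M21 (GRCm38) gave symbols and positions, and promoters came from RefSeq. The viability and apoptosis assays of the study were not used here.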

Additional observations from a re-analysis of the deposited data

How the results depend on the processing

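Over the 16 comparisons, the number of the 8 genes called kept its value, within 1.5 times, under every alternative in 10 of them. The fold changes of single genes were recomputed only where the gene had an unadjusted p below 0.05 or an FDR below 0.1, which leaves out *Pappa* and most comparisons of *Igf1* and *Igfbp7*. Of these 680 values, chosen by their p, 659 kept their direction and their side of the threshold, and 0 reversed. For CBD 3 µM against vehicle at 6 h the count went from 0 to 1 (*Igfbp4*) by DESeq2, without the low-count filter and with the covariate for reads outside genes, and ranged from 0 to 1 when single libraries were left out. At 24 h the same dose gave 1 (*Igfbp2*) with no filter, and 0 to 1 without single libraries (1 without A17). Among doses at 24 h, the count of 1 became 2 with no filter, 0 with the covariate and 0 to 1 without single libraries (0 without A16). For 3 µM against the lower doses at 24 h, the count of 2 became 0 with the covariate and 0 to 2 without single libraries, with 0 without A16 and 1 (*Igfbp2*) without A18, A19, A21, A23, A25 or A26. For vehicle at 24 h against 6 h, the count of 5, here with *Igfbp3*, ranged from 3 to 5 without single libraries (3 without A30). Averaged over the conditions, 7, also with *Igfbp3*, became 4 with at least 10 counts in every library, since 4 members were left to test. The calls of *Igfbp3* in these counts are no result, since it passed the main filter only through the 6 h libraries. Where a filter or a library did not remove the members tested, the cause was not tested. Over all genes, the counts moved more: 6 genes were called at 3 µM and 6 h, against 48 with DESeq2, 92 with no filter, 79 with the covariate and 0 to 135 over all alternatives. For 3 µM against the lower doses the 1275 genes ranged from 30 to 2303. *Igfbp3*, *Igfbp5*, *Igf1* and *Pappa* had few reads, so that changes of their size against vehicle could not be told from the spread. No paired analysis was possible because each library has its own number, which no other group shares.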
